A study of Mus musculus with 6 samples.

Results

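The oligodendrocyte lineage was described here in cultures of primary mouse neurons by 9 genes that mark its stages. The genes were chosen by name, with earlier results of these data known. *Olig1*, *Olig2*, *Sox10*, *Pdgfra* and *Cspg4* mark progenitors, and *Mbp*, *Mog*, *Mag* and *Cnp* belong to myelin. All 9 were found among the 50508 gene symbols of the libraries, and 7 of them were above 0 in at least 1 library. RNA was compared between 3 libraries labelled sgKcna1 (Kcna1-dCas9A) and 3 labelled sgLacZ (Ctrl-dCas9A). Cells of both groups came from newborn C57Bl/6J mouse pups and were transduced with a lentivirus for dCas9-VP160, a nuclease-dead Cas9 joined to a transcriptional activator. What distinguished them was the guide RNA, either sg19 against the *Kcna1* promoter or a control directed at LacZ. The activator was driven by the *Eef1a1* promoter, which is not restricted to neurons, and neither a sort nor the removal of glia is described for these cultures. GEO's labels give hippocampus as the tissue region, whereas the study's methods describe cortical neurons, with RNA taken at 10 days in vitro in one place and 14 to 16 days after transduction in another. The libraries carry separate numbers, but nothing states that they came from separate cultures, so that p-values measure the spread between these libraries, which may be technical.

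Oligodendrocytes wrap axons of the central nervous system in myelin. They arise from progenitors that divide in response to platelet-derived growth factor, and a set of transcription factors, with OLIG2 and SOX10 at its centre, commits these progenitors and later switches on the myelin genes. In the mouse forebrain this switch takes place mostly after birth, so that cultures of newborn cortex or hippocampus commonly hold progenitors and few mature cells.

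Values are whole numbers, treated here as per-million values, from libraries that read the 3′ end of transcripts. Whether they were divided by gene length is not given in the sources used here, so that levels of different genes may not be on one scale, in sums and ratios of genes too. The totals lay between 999047 and 999717, which leaves the sequencing depth unknown. The noncoding gene *Gm42418* held from 15.3% to 20.2% of the total, with overlapping groups. The targeted gene *Kcna1* stood at 16 in each control library against 68, 47 and 65 with sg19, in the direction of the labels. Values on the log2(value + 1) scale of all 19504 genes above 0 in at least 1 library were compared with limma, with the group as the only factor. A gene was called at a Benjamini-Hochberg adjusted p under 0.05. Of all genes tested, 0.81% were called lower and 0.349% higher in Kcna1-dCas9A. This division depended on the settings. As deposited, 68 genes were called higher and 158 lower. The excess turned to the higher side under median-of-ratios scaling (963 against 758 lower), under upper-quartile scaling (1226 against 832 lower) and without the intensity trend (117 against 84 lower), and stayed on the lower side when libraries were rescaled without *Gm42418* (680 higher, 1088 lower). The smallest p that an exact permutation test of 3 libraries against 3 allows is 0.1.

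Of the 5 progenitor genes, 1 was called lower in Kcna1-dCas9A, the lineage factor *Olig2* (0.81% of all genes tested were called lower). All 5 had a negative log2 fold change (median -1.06), as did 9896 of the 19504 genes tested, while 8614 had a positive one. Of the 4 myelin genes, 2 were listed at 0 in every library, and the 2 others had positive log2 fold changes (median 0.71), with 0 called by limma and 1 of them, *Mbp*, at an unadjusted p under 0.05. The median over all genes tested was -0.02. At an unadjusted p under 0.05 there were 4 progenitor genes on the lower side, where 13.6% of all genes tested were found, and 1 myelin gene on the higher side, where 9.59% were found. The groups did not overlap for 3 of the 5 progenitor genes, all lower (13.3% of all genes tested), and for 1 of the 2 tested myelin genes, which was higher (8.98% of all genes tested).

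**Figure D1:**
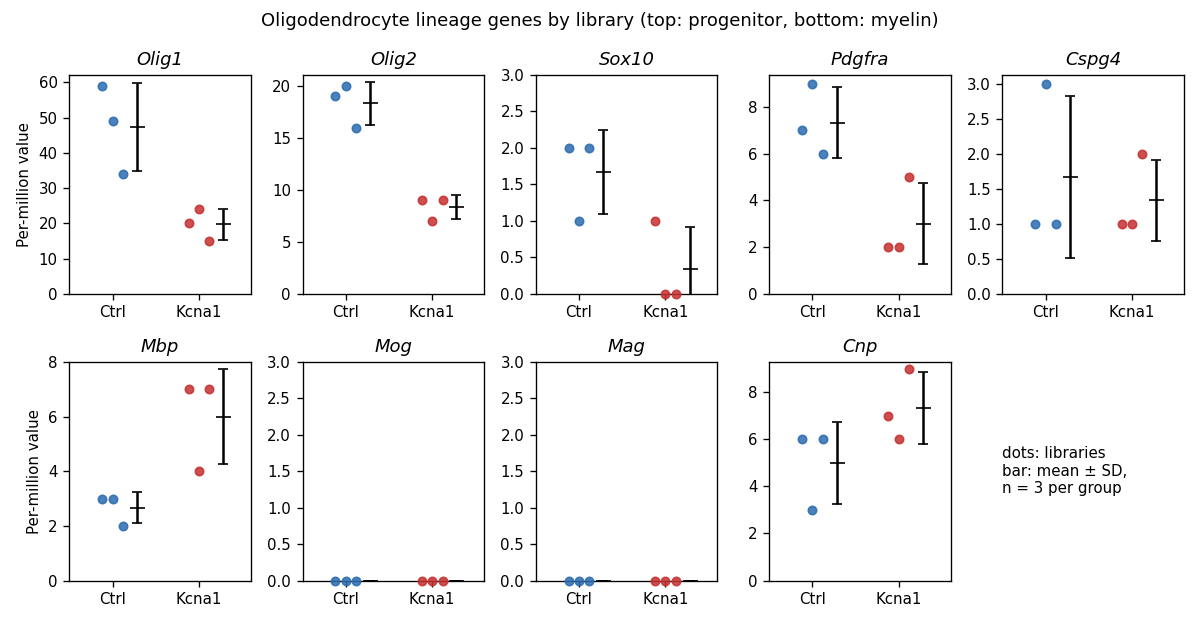
Per-million value (y axis, linear, from 0) of each of the 9 genes in the Ctrl-dCas9A (blue) and Kcna1-dCas9A (red) libraries, with the mean and SD of 3 libraries as a black bar (the SD of *Sox10* is cut at 0). *Olig1*, *Olig2* and *Pdgfra* separate the groups downwards and *Mbp* upwards, while *Mog* and *Mag* are at 0 throughout.

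*Olig2* encodes the basic helix-loop-helix factor that specifies the lineage and stays on in its progenitors. It was listed at 19, 20 and 16 in the controls against 9, 7 and 9 with sg19. Every Kcna1-dCas9A library lay below every Ctrl-dCas9A library, and the gap between the groups, from 16 to 9, was wider than the spread within either. Means were 18.3 ± 2.08 (SD, n = 3) for the controls and 8.33 ± 1.15 (SD, n = 3) for Kcna1-dCas9A. On the log2 scale the difference was -1.05 (standard error 0.18, 95% interval -1.47 to -0.63), with an adjusted p of 0.0497 from limma over all genes tested. The call was at the edge of the threshold. The adjusted p from limma was 0.135 without Ctrl-dCas9A replicate 1, 0.143 without replicate 2, 0.0239 without replicate 3, 0.112 without Kcna1-dCas9A replicate 1, 0.117 without replicate 2 and 0.13 without replicate 3, while the log2 fold change stayed between -1.14 and -0.95 whichever of the 6 libraries was left out. In bulk RNA, fewer cells of a type and less RNA per cell cannot be told apart, here and for every gene that follows.

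*Olig1*, a close relative of *Olig2* that acts in the maturation of oligodendrocytes, was listed at 59, 49 and 34 in Ctrl-dCas9A, compared with 20, 24 and 15 for Kcna1-dCas9A. The groups did not overlap, although Ctrl-dCas9A replicate 3 stood well below the other two control libraries. Mean values were 47.3 ± 12.6 (SD, n = 3) and 19.7 ± 4.51 (SD, n = 3), which gives a log2 fold change of -1.21 (standard error 0.25, 95% interval -1.80 to -0.63). The adjusted p from limma was 0.0556, just above the threshold, and *Olig1* passed in 7 of 16 alternatives. The adjusted p was 0.031 without Ctrl-dCas9A replicate 3, but 0.18 and 0.2 without replicates 1 and 2 and 0.154, 0.129 and 0.18 without Kcna1-dCas9A replicates 1, 2 and 3. It was 0.103 without the intensity trend, 0.111 with the replicate number as a block, and 0.0508 and 0.0577 with pseudocounts of 0.5 and 0.1. It was under 0.05 with the rescalings and low-value filters tried, at 0.0151 with median-of-ratios factors, 0.00652 with upper-quartile factors, 0.0117 without *Gm42418*, 0.0263 with genes kept from a mean of 1 upwards and 0.00198 from a mean of 10 upwards.

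The *Olig* genes are neighbours. In GENCODE vM1 on NCBIM37 (mm9), the build that the study's methods name, *Olig2* lies on chromosome 16 from 91225795 to 91228922 and *Olig1* on the same strand (plus) from 91270014 to 91272184, so that their starts are 44219 bp apart. Their ratio did not separate the groups. The *Olig1* value divided by that of *Olig2* was 3.11, 2.45 and 2.13 in Ctrl-dCas9A and 2.22, 3.43 and 1.67 in Kcna1-dCas9A (means 2.56 ± 0.499 and 2.44 ± 0.901, SD, n = 3 each). These means differed by less than the SD within either group.

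RefSeq promoter windows (GRCm38.p6) were at hand for 6 of the 9 genes. The 250 bases before the start are shown for *Olig2*, the gene that was called, on the plus strand at chr16:91225300-91225549, and for *Cnp*, the tested myelin gene with a window, on the plus strand at chr11:100574689-100574938. Capitals mark the motifs searched: the E-box CANNTG that basic helix-loop-helix factors bind, the SOX motifs ACAAAG and ACAATG on both strands, and the TATA box TATAAA on the strand of the gene, with no overlap between the matches marked.
Olig2: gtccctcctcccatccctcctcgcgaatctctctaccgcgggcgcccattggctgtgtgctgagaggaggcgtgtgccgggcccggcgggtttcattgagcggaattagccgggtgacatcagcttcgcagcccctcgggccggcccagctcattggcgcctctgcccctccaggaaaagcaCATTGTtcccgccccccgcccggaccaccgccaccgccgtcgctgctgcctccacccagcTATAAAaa
Cnp: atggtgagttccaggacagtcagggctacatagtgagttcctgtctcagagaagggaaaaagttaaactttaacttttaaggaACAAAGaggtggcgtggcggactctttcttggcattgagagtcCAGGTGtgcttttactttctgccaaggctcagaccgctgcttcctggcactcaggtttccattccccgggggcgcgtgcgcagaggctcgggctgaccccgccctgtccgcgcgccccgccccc
The *Olig2* window holds 1 SOX match, on the opposite strand, a TATA box close to the annotated start and 0 E-boxes. The *Cnp* window holds 1 SOX match and 1 E-box. Among 32851 promoter windows of this length, 66.2% hold an E-box, 25.2% a SOX match and 7.59% a TATA box, so that the first 2 motifs are common. The windows of *Cspg4* and *Mog* hold neither an E-box nor a SOX match.

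By profile over the 6 libraries, the genes nearest to *Olig2* among 8049 other genes whose mean reached 10 were *Ube2g2*, a ubiquitin-conjugating enzyme, *Calu*, a calcium-binding protein of the endoplasmic reticulum, and *Hnrnpl*, an RNA-binding protein. The root mean square difference of the centred log2(value + 1) profiles was 0.0532, 0.0596 and 0.0693. *Ube2g2* was listed at 36, 38 and 28 for the control libraries, and 18, 13 and 17 under sg19. These nearest genes are not oligodendrocyte markers, and their likeness rests on 6 libraries that share the same 2 groups.

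*Sox10*, which encodes the factor that acts with OLIG2 on the myelin genes and is also present in Schwann cells, was barely detected. It was listed at 2, 1 and 2 in the controls against 1, 0 and 0 with sg19, so that the groups met at 1. The log2 fold change was -1.06 (standard error 0.37, 95% interval -1.94 to -0.18), with an adjusted p of 0.144 from limma. At such values a single unit is a large step on the log2 scale, and with a pseudocount of 0.1 the log2 fold change was -2.93.

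*Pdgfra*, the receptor through which platelet-derived growth factor keeps progenitors dividing, was listed at 7, 9 and 6 in Ctrl-dCas9A, compared with 2, 2 and 5 for Kcna1-dCas9A. The groups did not overlap, with 1 unit between the lowest control and the highest Kcna1-dCas9A library, replicate 3. Mean values were 7.33 ± 1.53 (SD, n = 3) and 3 ± 1.73 (SD, n = 3), which gives a log2 fold change of -1.12 (standard error 0.34, 95% interval -1.92 to -0.33) with an adjusted p of 0.104 from limma. *Cspg4*, the NG2 proteoglycan on the surface of progenitors and of pericytes, was listed at 1, 3 and 1 for the control libraries, and 1, 1 and 2 under sg19, with overlapping groups. Its log2 fold change of -0.14 had a 95% interval from -1.02 to 0.74 and an adjusted p of 0.831 from limma. Its sign turned to 0.20 without Ctrl-dCas9A replicate 2.

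**Figure D2:**
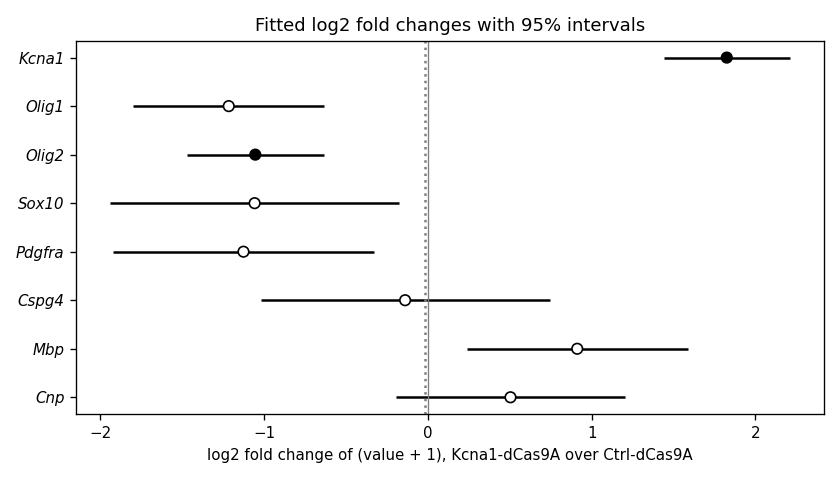
Log2 fold change of (value + 1), Kcna1-dCas9A over Ctrl-dCas9A (x axis), with 95% intervals from limma, for *Kcna1* and the 7 tested lineage genes. Filled points are called and open points are not, the dotted line is the median of all genes tested (-0.02), and the progenitor genes lie to its left with the myelin genes to its right.

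*Mbp* encodes myelin basic protein, which compacts the myelin sheath. The same locus also gives golli transcripts, which occur in neurons and immune cells, and a value per gene symbol does not separate these forms. *Mbp* was listed at 3, 3 and 2 in the controls against 7, 4 and 7 with sg19. The groups did not overlap, with Kcna1-dCas9A replicate 2 the nearest to the controls. Mean values were 2.67 ± 0.577 (SD, n = 3) and 6 ± 1.73 (SD, n = 3), which gives a log2 fold change of 0.91 (standard error 0.29, 95% interval 0.24 to 1.59), with an adjusted p of 0.113 from limma. In all 15 alternatives that tested *Mbp* the log2 fold change was positive and the adjusted p lay between 0.0655 and 0.277.

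*Cnp*, which encodes an enzyme of the cytoplasmic channels in myelin, was listed at 6, 3 and 6 in Ctrl-dCas9A, compared with 7, 6 and 9 for Kcna1-dCas9A. The groups met at 6, and the log2 fold change of 0.50 (95% interval -0.19 to 1.20) had an adjusted p of 0.347 from limma. *Mog* and *Mag*, which encode glycoproteins of the outer and the innermost myelin layer and mark mature oligodendrocytes, were listed at 0 in all 6 libraries, so that no fold change can be given. The defining markers of mature cells thus stood at 0 in both groups. With values treated as rounded and the depth unknown, a listed 0 does not show that reads were absent.

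Summed per library, the 5 progenitor genes reached 88, 82 and 59 in Ctrl-dCas9A and 33, 34 and 31 in Kcna1-dCas9A. *Olig1* made up from 48.4% to 70.6% of this sum. The 4 myelin genes summed to 9, 6 and 8 in Ctrl-dCas9A and to 14, 10 and 16 in Kcna1-dCas9A, all of it from *Mbp* and *Cnp*. The sums of the groups did not overlap in either case, in opposite directions, but a sum over 22 further myelin genes, described with the other lists, did not share the direction of the myelin sum. The progenitor sum was 9.78, 13.7 and 7.38 times the myelin sum in Ctrl-dCas9A and 2.36, 3.4 and 1.94 times in Kcna1-dCas9A, and averaged 10.3 ± 3.18 and 2.56 ± 0.753 (SD, n = 3 each). This ratio does not depend on the scaling of a library. No test was made on these sums, since the genes were chosen with results of these data known, and the myelin sum rests on values of 9 or less per gene.

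**Figure D3:**
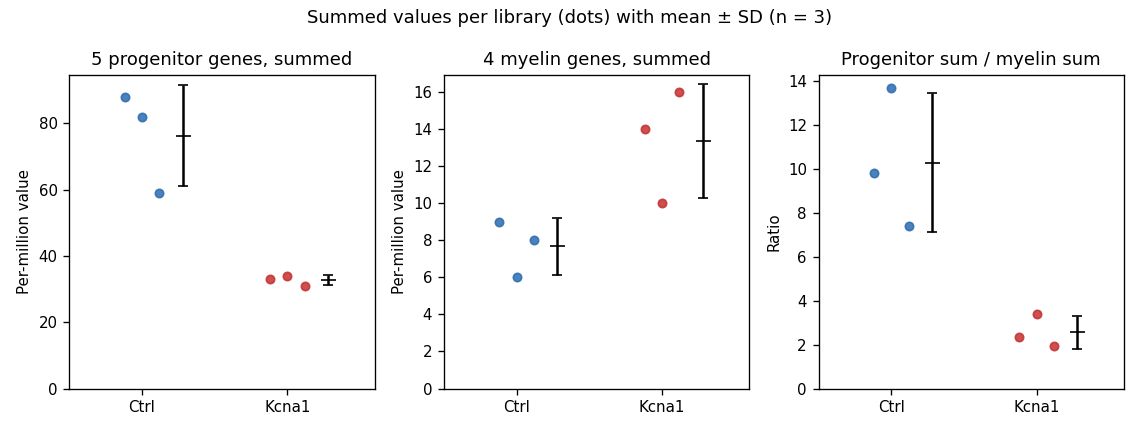
Sum of the 5 progenitor genes and of the 4 myelin genes (y axes, per-million values) and their ratio in each library, with the mean and SD of 3 libraries per group. Progenitor sums lie between 59 and 88 in Ctrl-dCas9A and between 31 and 34 in Kcna1-dCas9A, and myelin sums between 6 and 9 and between 10 and 16.

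A further 74 genes of the lineage were grouped by role, and 56 of them were above 0 in at least 1 library. Of these, 2 were called lower and 0 higher by limma, against 0.81% and 0.349% of all genes tested. The median log2 fold change of the 56 was -0.31. At an unadjusted p under 0.05 from limma, 13.6% of all genes tested were lower and 9.59% higher. The groups did not overlap for 16 of the 56 on the lower side, where 13.3% of all genes tested did not, and for 1 on the higher side (8.98% of all genes tested). That 1 was *Pcdh15*, a protocadherin of progenitors, named after its values were seen, which was listed at 0, 2 and 2 for the control libraries, and 4, 4 and 6 under sg19 (log2 fold change 1.43, adjusted p = 0.128 from limma).

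Among 10 other genes enriched in progenitors, 9 were tested and 1 was called lower (0.81% of all genes tested). The median log2 fold change was -0.42. The called gene was *Cacng4*, an auxiliary subunit of AMPA receptors that is also present in neurons, listed at 242, 224 and 202 in the controls against 146, 147 and 149 with sg19 (log2 fold change -0.59, standard error 0.09, adjusted p = 0.0496 from limma). The Kcna1-dCas9A libraries lay within 3 units of each other and all below the controls. The 2 highest of the rest, *Ptprz1*, a receptor phosphatase shared with astrocytes and radial glia, and *Vcan*, a proteoglycan of the matrix, had log2 fold changes of -0.32 (adjusted p = 0.148 from limma) and 0.29 (adjusted p = 0.271).

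Of 11 further lineage factors, 7 were tested and 0 called by limma (2 had an unadjusted p under 0.05), with a median log2 fold change of -0.17. *Nkx2-2*, *Nkx6-2*, *Zfp488* and *Myrf*, the last of which drives the myelin programme, were listed at 0 throughout. The 2 highest, *Sox5* and *Sox6*, which hold progenitors back from maturation and are also present in neurons, had log2 fold changes of -0.17 and -0.66, and *Sox6* was listed at 27, 30 and 25 in Ctrl-dCas9A, compared with 22, 18 and 12 for Kcna1-dCas9A (adjusted p = 0.133 from limma).

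Of 5 premyelinating genes, 4 were tested and 0 called by limma (1, *Fyn*, had an unadjusted p under 0.05). *Fyn*, a kinase also present in neurons, had a log2 fold change of -0.31 and *Itpr2*, a calcium release channel, of 0.40. Of 22 further myelin genes, 9 were listed at 0 in every library, among them *Mobp*, *Mal* and *Opalin*, and 13 were tested, of which 0 were called by limma and 1 had an unadjusted p under 0.05. *Car2*, a carbonic anhydrase, was listed at 9, 3 and 6 and at 3, 6 and 4. The median over the 13 genes was 0, with 6 negative and 5 positive log2 fold changes, and 0 of the 13 had groups that did not overlap on the higher side. These genes summed to between 18 and 28 in Ctrl-dCas9A and between 12 and 18 in Kcna1-dCas9A, meeting at 18, whereas the sum of *Mbp* and *Cnp* was higher in Kcna1-dCas9A.

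Among signals that act on the lineage, 6 of 9 ligands were tested and 0 called by limma (1 had an unadjusted p under 0.05). That 1 was *Pdgfa*, the ligand of the *Pdgfra* receptor, listed at 47, 43 and 40 in the controls against 34, 31 and 25 with sg19 (log2 fold change -0.52, standard error 0.15, adjusted p = 0.0902 from limma). *Igf1*, a growth factor that favours maturation, was listed at 20, 15 and 15 and at 16, 16 and 19, a log2 fold change of 0.03 with a 95% interval from -0.37 to 0.44. All 9 receptors were tested with 0 called by limma. On the lower side, 4 had an unadjusted p under 0.05 from limma (13.6% of all genes tested). All 9 had negative log2 fold changes (median -0.60), as did 9896 of the 19504 genes tested. The 2 highest, *Fgfr1* and *Igf1r*, had log2 fold changes of -0.07 and -0.31 with intervals that include 0.

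Of 8 inhibitors of differentiation, all tested, 1 was called lower (0.81% of all genes tested). The median log2 fold change was -0.43. *Hes5*, a target of Notch signalling that is best known from neural progenitors and astrocytes, was listed at 197, 211 and 199 in Ctrl-dCas9A, compared with 112, 114 and 115 for Kcna1-dCas9A (log2 fold change -0.83, standard error 0.08, adjusted p = 0.0422 from limma). *Id2*, which blocks basic helix-loop-helix factors, was listed at 323, 301 and 223 and at 178, 205 and 167 (log2 fold change -0.61, adjusted p = 0.075 from limma). *Lingo1* had a log2 fold change of -0.04 with a 95% interval from -0.30 to 0.22.

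**Figure D4:**
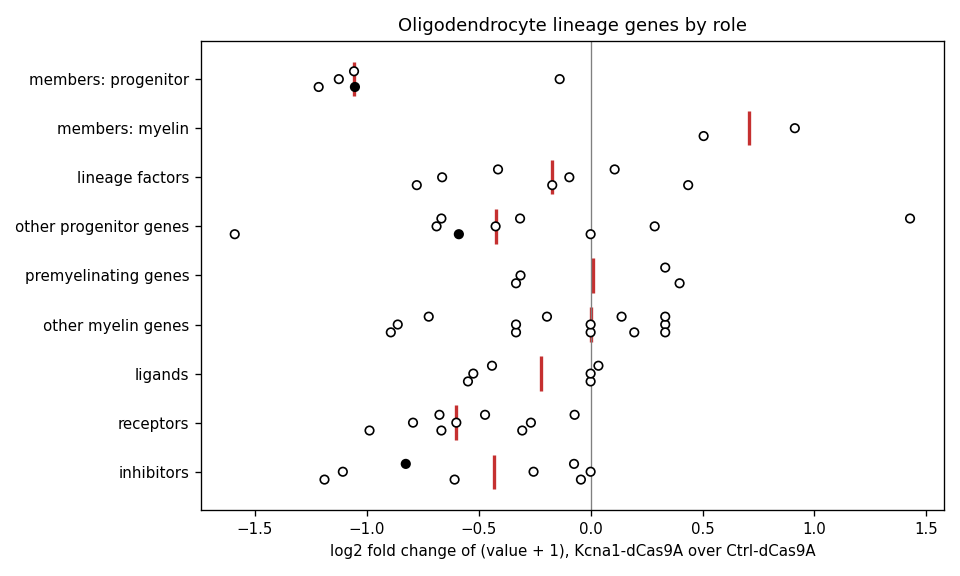
Log2 fold change of (value + 1), Kcna1-dCas9A over Ctrl-dCas9A (x axis), of each tested gene by role (y axis), with called genes filled and the median of each role as a red bar. The medians run from -1.06 for the 5 progenitor genes to 0.71 for *Mbp* and *Cnp*.

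Markers of other cells moved with these differences, and their part in the results above was not tested. Astrocyte markers, 3 of 9 called lower (*Aqp4*, *Sox9* and *Aldoc*, against 0.81% of all genes tested), summed to between 925 and 1037 in Ctrl-dCas9A and between 672 and 698 in Kcna1-dCas9A. The groups overlapped for *Gfap*, *Aldh1l1* and *S100b* of the same list, named after their values were seen, with log2 fold changes of -0.02, -0.01 and 0.32. Cell cycle genes, 0 of 8 called by limma (6 had an unadjusted p under 0.05), summed to between 112 and 117 and between 65 and 73, and 6 of the 8 had groups that did not overlap, all lower. Over all genes tested, 13.6% had an unadjusted p under 0.05 and 13.3% did not overlap on the lower side, with 9.59% and 8.98% on the higher side. Neural progenitor markers, 0 of 6 called by limma (3 had an unadjusted p under 0.05), summed to between 190 and 221 and between 161 and 182. Microglia markers, 6 of 8 tested and 1 called higher (*C1qa*, against 0.349% of all genes tested), summed to between 22 and 25 and between 53 and 72. *Tmem119* and *P2ry12* were listed at 0. The groups overlapped for *C1qc* and *Csf1r* of this list, named after their values were seen, with log2 fold changes of -0.195 and 1.195. Neuronal markers, 0 of 8 called by limma (5 had an unadjusted p under 0.05), summed to between 4186 and 4925 and between 5311 and 6719. They did not move one way, since 3 had groups that did not overlap on the lower side, among them *Map2* (1643, 1819 and 1614 against 1442, 1466 and 1427), and 2 on the higher side, among them *Tubb3* (1862, 1752 and 2605 against 3855, 3221 and 4591). The direction of the neuronal sum rests on *Tubb3*, since the other 7 markers summed to between 2320 and 2519 in Ctrl-dCas9A and between 2090 and 2153 in Kcna1-dCas9A. That lower sum rests in turn on *Map2*, without which the remaining 6 markers overlapped, at 681 to 706 and 624 to 711. Both of these sums were chosen after the values were seen. Whether other cells shared *Olig1* and *Olig2* was not examined. Markers of pericytes and endothelium, fibroblasts and Schwann cells, which share other single lineage genes, were low. Of these markers, 0 were called by limma, also at an unadjusted p under 0.05. Those of pericytes and endothelium, which share *Cspg4*, summed to between 7 and 9 in Ctrl-dCas9A and between 4 and 5 in Kcna1-dCas9A with *Abcc9* at 0. Those of fibroblasts, which share *Pdgfra*, summed to between 7 and 13 and between 3 and 9. Those of Schwann cells, which share *Sox10* and *Mbp*, summed to between 6 and 15 and between 7 and 10.

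**Figure D5:**
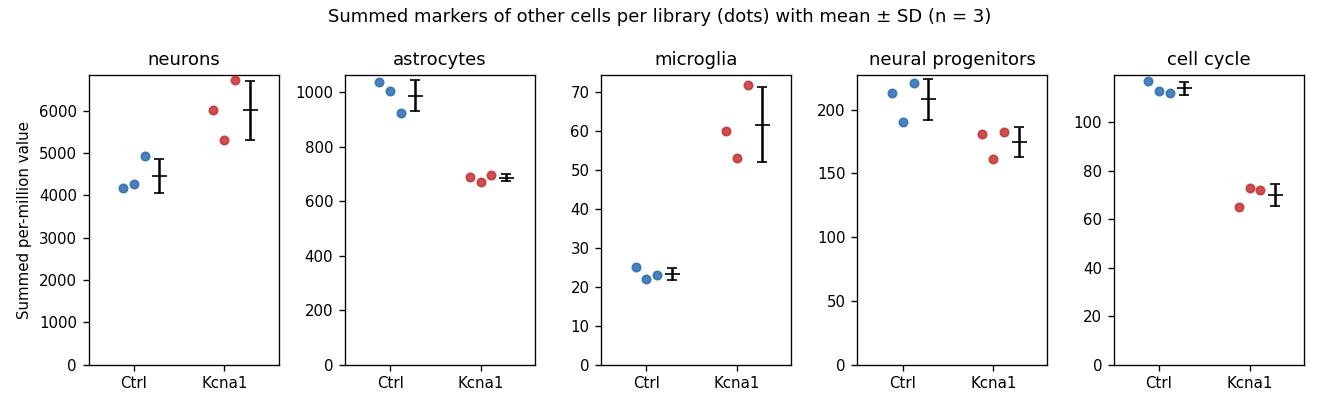
Summed per-million value (y axes, from 0) of the markers of neurons, astrocytes, microglia, neural progenitors and the cell cycle in each library, with the mean and SD of 3 libraries per group. Astrocyte, neural progenitor and cell cycle sums are lower, and microglia and neuronal sums higher, in every Kcna1-dCas9A library than in every Ctrl-dCas9A library, but the higher neuronal sum rests on *Tubb3*.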

How the data were processed

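RNA of 6 libraries was prepared by the authors with a QuantSeq 3′ kit. The study's methods name Bowtie2 and NCBI37/mm9 for these libraries, whereas the submitters' processing notes list STAR 2.7, featureCounts, DESeq2 and mm10. The deposited files hold 1 score per gene, a whole number treated here as a per-million figure that the authors had rounded: every library has nearly the same total, and for genes with a mean from 4 to 8 the variance between replicates averaged 0.698 (Ctrl-dCas9A) and 0.499 (Kcna1-dCas9A) times the mean, below what Poisson counting of unscaled reads gives. The scaling is not given in the sources used here, so that no intervals or floors based on depth were computed, and count models were not used.

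Genes above 0 in at least 1 library were fitted with limma 3.58.1 in R 4.3.3 (lmFit, eBayes with an intensity trend) on log2(value + 1), a scale that understates changes of low values, with Benjamini-Hochberg adjustment over 19504 genes and a threshold of 0.05. Single genes were also compared by a two-sided exact permutation test. The smallest p that this test can give is 0.1, so that no gene could fall under 0.05 by it. It gave 0.1 for *Kcna1*, *Olig1*, *Olig2*, *Pdgfra* and *Mbp* and larger values for the other tested genes of the 9. The 9 genes and all gene lists were chosen with earlier results of these data known. Named genes were the 9, *Kcna1*, called genes of each list, the 2 of highest mean in each list, and the 3 genes nearest in profile to a called gene (of the marker lists, called genes and the 2 highest neuronal genes are described, and some genes that the rule names are not reported here). Alternatives were pseudocounts, low-value filters, scalings, variance models, the replicate number as a block and each library left out.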

Additional observations from a re-analysis of the deposited data

How the results depend on the processing

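The number of the 9 lineage genes called, 1 as reported (*Olig2*, lower), was 0 with a pseudocount of 0.5, without the intensity trend and with the replicate block, 2 when genes were kept from a mean of 1 or of 10 upwards, with median-of-ratios or upper-quartile factors and without *Gm42418*, and 3 with a robust variance, all of them lower. It was 1 with a pseudocount of 0.1. Under the same settings the number of the other lineage genes called, 2 as reported, was 1 with a pseudocount of 0.5, 0 without the trend and with the replicate block, 6 and 8 with the filters at 1 and 10, 4 and 6 with median-of-ratios and upper-quartile factors, 6 without *Gm42418* and 12 with the robust variance. Over all genes, 226 as reported, it was 10 and 627 with pseudocounts of 0.5 and 0.1, 1543 and 2289 with the filters, 1721 and 2058 with the factors, 1768 without *Gm42418*, 201 without the trend, 2884 with the robust variance and 0 with the replicate block (4326 at an unadjusted p under 0.05). Leaving out 1 library at a time, the counts ran from 0 to 2 for the 9 genes, from 0 to 6 for the other lineage genes and from 0 to 2711 over all genes, and calls were made only without Ctrl-dCas9A replicate 3 (without any other library, from 3332 to 3853 genes had an unadjusted p under 0.05). The cause was not tested.

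Signs held for the 7 tested genes in every alternative except that of *Cspg4*, which was 0.195 on the log2 scale without Ctrl-dCas9A replicate 2 and -0.33 without Kcna1-dCas9A replicate 3, its extremes with a library left out. *Olig2* passed in 8 of 16 alternatives (adjusted p from 0.000991 to 0.143) and *Olig1* in 7 of 16 (1.06e-07 to 0.2). Under the replicate block their adjusted p from limma was 0.113 and 0.111. The replicate numbers were not taken as pairs in the reported fit. Deviations of same-numbered libraries from their group means correlated at 0.0143, 0.114 and 0.154, the highest value for each Kcna1-dCas9A library. Only Ctrl-dCas9A replicate 1 correlated best with another number (0.0989 with Kcna1-dCas9A replicate 2). Correlations this low do not settle whether the numbers are pairs. The medians of the progenitor and myelin genes and the difference between the groups in the log2 of the progenitor sum over the myelin sum (between -2.22 and -1.77 with a library left out) moved by less than the SD between replicates. *Mbp*, *Cnp*, *Sox10*, *Pdgfra* and *Cspg4* were left out by the filter at 10, so that no myelin median exists there. Depth is unknown, and values of 9 or less in at least 1 group limit the precision for every tested gene of the 9 but *Olig1*, *Olig2* included.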
